A study of Mus musculus with 9 samples.

Results

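The miR-101 family of the mouse was followed across 9 small RNA libraries from quadriceps muscle. It consists here of the 4 mature miRNAs of the miR-101a and miR-101b precursors, found by name among the 1966 mature miRNAs of the deposited table of raw counts. mmu-miR-101a-3p had 2490 to 3183 raw counts in a library, mmu-miR-101b-3p had 1539 to 2818, mmu-miR-101a-5p had 1 to 6, and mmu-miR-101b-5p had 0 to 3. The species prefix is left out below. The libraries came from 3 wild-type mice (WT; C57BL/6J, Mbnl1+/+ Mbnl2+/+), 3 Mbnl1KO mice (C57BL/6J, Mbnl1ΔE3/ΔE3 Mbnl2+/+) and 3 Mbnl2KO mice, with 1 library per labelled sample. The Mbnl2KO mice carry Mbnl1+/+ and the strain label B6.C-Tg(CMV-cre)1Cgn/J, a line in which the CMV promoter drives Cre recombinase in most tissues. Their Mbnl2 alleles are labelled ΔE2/ΔE2 in replicate 1, ΔE2/ΔE3 in replicate 2 and ΔE2/ΔE4 in replicate 3, while the study's own account of the mice names ΔE2/ΔE2 alone. The allele labels of replicates 2 and 3 are therefore uncertain, and the mice were treated as 1 group. The WT labels do not carry the Cre line, so that loss of Mbnl2 and the strain label cannot be told apart from the labels, although the study describes its WT mice as littermates. All mice are labelled as 90 days old. Small RNA libraries do not measure the Mbnl1 and Mbnl2 mRNAs, so the knockouts could not be checked here. The members were chosen by their measured differences between knockout and WT in these same libraries, where miR-101b-3p was lower in both knockouts. Differences from WT are therefore given as a description, without p-values for the members, and whether a member passed the threshold there supports nothing.

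A miRNA is cut from a hairpin precursor by Drosha and Dicer, and 1 strand of the resulting duplex is usually kept in an Argonaute protein. Bases 2 to 8 of that strand, the seed, pair with target mRNAs. In the miR-101 hairpins the kept strand is the 3p arm, and the best known target of the family is Ezh2, the methyltransferase of polycomb repressive complex 2, which keeps muscle genes silent in undifferentiated myogenic cells. The MBNL proteins bind RNA at short motifs with a central GC between pyrimidines, and control splicing as well as other steps of RNA processing. The comparison asks how the levels of both paralogs stand in muscle that lacks either protein.

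The mature sequences show how little separates the paralogs. They are shown 5′ to 3′ as RefSeq gives them for GRCm38.p6, with the seed in capitals.
miR-101a-3p: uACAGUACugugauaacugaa
miR-101b-3p: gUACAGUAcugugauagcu
miR-101c: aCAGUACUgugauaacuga
miR-144-3p: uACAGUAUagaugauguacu
miR-101a-5p: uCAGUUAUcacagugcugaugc
miR-101b-5p: uCGGUUAUcaugguaccgaugcu
With base 1 of miR-101a-3p set against base 2 of miR-101b-3p, 17 of 18 aligned bases were identical, and the single substitution was A16G, counted from the 5′ end of miR-101a-3p. The annotated 5′ end of miR-101b-3p lies 1 base further upstream, so that the annotated seeds were ACAGUAC for miR-101a-3p and UACAGUA for miR-101b-3p, and both stretches are present near the 5′ end of each. The 5p arms differed at 5 of 22 aligned bases (A3G, C11U, A12G, G15A and U17C, counted from the 5′ end of miR-101a-5p). miR-101c, from a further precursor on chromosome 9, is contained base for base in miR-101a-3p. It was listed at 0 in all 9 libraries, and reads of its length cannot be told apart from trimmed miR-101a-3p. Of 1679 mature miRNAs in the RefSeq table, those holding either seed within bases 1 to 9 were miR-101a-3p, miR-101b-3p, miR-101c and miR-144-3p, a miRNA of red blood cells. miR-144-3p had at most 1 count in a library, while miR-144-5p from the same hairpin had 100 to 219. Some other miRNAs, such as miR-126a-3p, miR-142a-3p and miR-486a-5p, were listed at 0 in all 9 libraries, and whether the counting set these low values was not tested. In the table as deposited, nearly all counts with these seeds were those of the 3p arms of miR-101a and miR-101b.

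The paralogs come from separate loci. The precursor of miR-101a lies on chromosome 4 (chr4:101346945-101347027, minus strand, GRCm38.p6) within the long non-coding RNA gene E130102H24Rik on the same strand. In the GENCODE annotation of GRCm39 it overlaps an exon of that gene. The precursor of miR-101b lies on chromosome 19 (chr19:29135279-29135375, plus strand, GRCm38.p6) in an intron of Rcl1, a protein-coding gene for a nucleolar factor of ribosomal RNA processing, also on the same strand. RefSeq annotates no other miRNA precursor within 50000 bases of either. The hairpins of 83 and 97 bases were identical at 77.1% of 83 aligned bases.

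Because of the letters that MBNL proteins bind, the hairpins were searched on the RNA strand for the motif UGCU and its variants UGCC, with C in the last place, CGCU, with C in the first, and CGCC, with C in both. Each hairpin held a UGCU at the junction of the 5p arm and the terminal loop, shown here in capitals within the last 4 bases of the 5p arm and the loop.
miR-101a: aUGCUguccauucuaaagg
miR-101b: UGCUguagcucugaaag
In miR-101a this UGCU began at base 33 of the precursor, with a further UGCU at base 27, and in miR-101b it began at base 43. Away from the loop, UGCC began at base 5 in miR-101a and at bases 15 and 91 in miR-101b. Neither hairpin held CGCU or CGCC. Of 1005 mouse hairpins in the RefSeq table, 41.1% held UGCU and 68.1% held at least 1 of the 4 motifs. The letters are therefore common and describe the sequence, not a binding site.

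The counts behind the 3p arms were high. Library totals ranged from 4761271 to 6277018 counts, with 524 to 602 mature miRNAs detected. Of these counts, 61.4% to 73.7% were miR-1a-3p, the most abundant miRNA of muscle, with the lowest share in Mbnl1KO replicate 1. The skeletal muscle identity of the samples was checked with 7 miRNAs. miR-1a-3p and miR-133a-3p had at least 295313 counts in every library, and miR-206-3p had 2917 to 20422. miR-133b-3p had 43 to 171, miR-499-5p had 4 to 96, miR-208b-3p had 0 to 8, and miR-486a-5p was listed at 0 throughout. Levels below are normalized counts, scaled by TMM over all 9 libraries. Changes are log2 fold changes from edgeR's quasi-likelihood fit of each pair of groups, restricted to miRNAs with a mean normalized count of more than 10.

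In WT muscle, miR-101a-3p and miR-101b-3p were expressed at similar levels. miR-101a-3p had 2924, 2807 and 3679 normalized counts in the WT libraries, and miR-101b-3p had 2748, 2486 and 2890. In every WT library miR-101a-3p was the higher of the pair. By raw count miR-101a-3p ranked between 40 and 51 and miR-101b-3p between 48 and 55 among all miRNAs of a WT library. The 5p arms, the strand that is usually discarded, had at most 3 raw counts in a WT library.

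miR-101b-3p was lower in both knockouts than in WT. It had 2159, 2092 and 1845 normalized counts in the Mbnl1KO libraries and 1679, 1629 and 1943 in the Mbnl2KO libraries. All 6 knockout libraries lay below all 3 WT libraries, and the Mbnl1KO and Mbnl2KO values overlapped. Under library totals alone, the Mbnl1KO values overlapped those of WT and lay above those of Mbnl2KO. The group means were 2708 ± 205 in WT, 2032 ± 166 in Mbnl1KO and 1750 ± 169 in Mbnl2KO (SD, n = 3 each). Relative to WT, the log2 fold change was −0.48 (standard error 0.147) in Mbnl1KO, or 0.715-fold. In Mbnl2KO it was −0.63 (standard error 0.133), or 0.646-fold. Both comparisons use the same WT libraries. Counting error was small beside these differences, since the lowest raw count of miR-101b-3p, 1539, has a 95% Poisson interval of 1463 to 1618. No source used here states that molecular identifiers were counted, and such intervals cover counting error only.

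**Figure D1:**
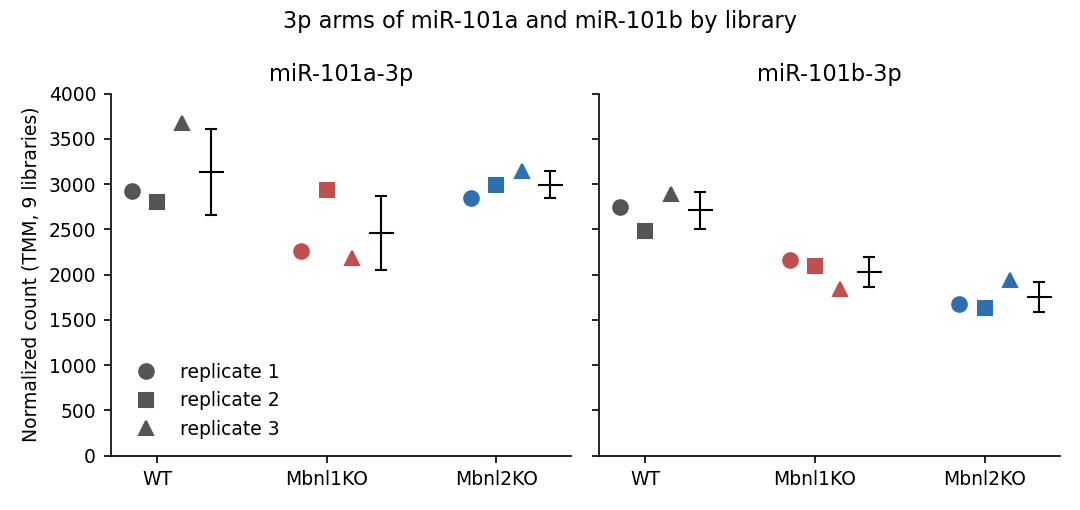
Normalized counts (TMM over 9 libraries, linear axis from 0) of miR-101a-3p (left) and miR-101b-3p (right) in each library, with the mean and SD of 3 libraries beside each group. For miR-101b-3p the knockout libraries sit at 1629 to 2159, below the WT libraries at 2486 to 2890, while the miR-101a-3p values of the groups overlap.

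miR-101a-3p was lower than in WT in the mean of the Mbnl1KO libraries and near the WT level in Mbnl2KO. It had 2259, 2931 and 2183 normalized counts in the Mbnl1KO libraries and 2842, 2989 and 3144 in the Mbnl2KO libraries. Mbnl1KO replicates 1 and 3 lay below every WT library, but replicate 2 lay within the WT range, so these groups overlapped under TMM, though not with DESeq2's size factors. The Mbnl2KO libraries all lay within the WT range. Group means were 3137 ± 473 in WT, 2458 ± 412 in Mbnl1KO and 2992 ± 151 in Mbnl2KO (SD, n = 3 each). The log2 fold change relative to WT was −0.42 (standard error 0.149) in Mbnl1KO, and −0.13 with library totals alone. In Mbnl2KO it was −0.07 (standard error 0.130), with a 95% interval of −0.34 to 0.20.

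Against all tested miRNAs, both changes in Mbnl1KO were near the median absolute log2 fold change of 0.419. In Mbnl2KO that median was 0.219, and miR-101b-3p changed by more and miR-101a-3p by less. In Mbnl1KO, 33.1% of 317 tested miRNAs passed an adjusted p of 0.05, 14.2% with a lower and 18.9% with a higher level in the knockout, and both 3p arms were among the lower ones. In Mbnl2KO, 5.80% of 293 tested miRNAs passed, 2.39% with a lower and 3.41% with a higher level, and miR-101b-3p was among the lower ones while miR-101a-3p did not pass. The family was chosen with these calls known, and nothing is read from the counts. The groups did not overlap for 42.6% of tested miRNAs in Mbnl1KO, with 18.0% lower, and for 24.9% in Mbnl2KO, with 10.9% lower. miR-101b-3p was among the lower ones in both. Ordered from the largest decrease, miR-101b-3p stood at place 62 of 317 in Mbnl1KO and at place 16 of 293 in Mbnl2KO. miR-101a-3p stood at places 74 and 117. Over all tested miRNAs the log2 fold change had a median of −0.01 in Mbnl1KO and 0.02 in Mbnl2KO.

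**Figure D2:**
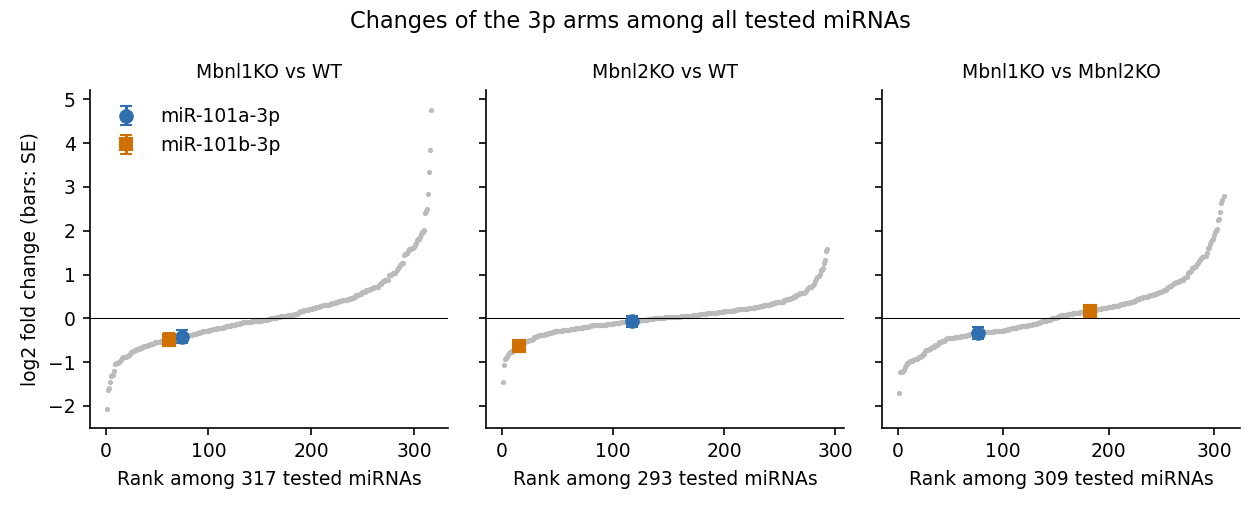
Log2 fold changes of all tested miRNAs in order of size (grey), with miR-101a-3p (circles) and miR-101b-3p (squares) and their standard errors, for each pair of groups. In Mbnl2KO against WT the paralogs stand apart, at places 117 and 16 of 293, and in Mbnl1KO against WT they stand close together, at places 74 and 62 of 317.

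The share of both paralogs within a library does not depend on how libraries are scaled to each other. miR-101b-3p made up 48.4%, 47.0% and 44.0% of the summed counts of both 3p arms in the WT libraries, and 48.9%, 41.6% and 45.8% in the Mbnl1KO libraries. In the Mbnl2KO libraries it made up 37.1%, 35.3% and 38.2%. All 3 Mbnl2KO shares lay below all 6 others, and the lowest of the others, 41.6% in Mbnl1KO replicate 2, had an exact 95% binomial interval of 40.3% to 43.1%. The highest Mbnl2KO share had an interval of 36.7% to 39.7%. Mean shares were 46.5% ± 2.27 in WT, 45.4% ± 3.62 in Mbnl1KO and 36.9% ± 1.48 in Mbnl2KO (SD, n = 3 each).

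As a ratio, miR-101b-3p stood at 0.870 ± 0.078 of miR-101a-3p in WT, 0.838 ± 0.12 in Mbnl1KO and 0.585 ± 0.037 in Mbnl2KO (SD, n = 3 each). On the log2 scale the ratio in Mbnl2KO differed from that in WT by −0.57 (standard error 0.093), and that in Mbnl1KO by −0.06 (standard error 0.14). Between the knockouts, the log2 ratio was 0.51 higher in Mbnl1KO than in Mbnl2KO (standard error 0.13), and the groups did not overlap. The members were chosen on values of the same knockout libraries, so this is a description, with no test. With 1 library left out at a time this difference stayed between 0.41 and 0.62.

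**Figure D3:**
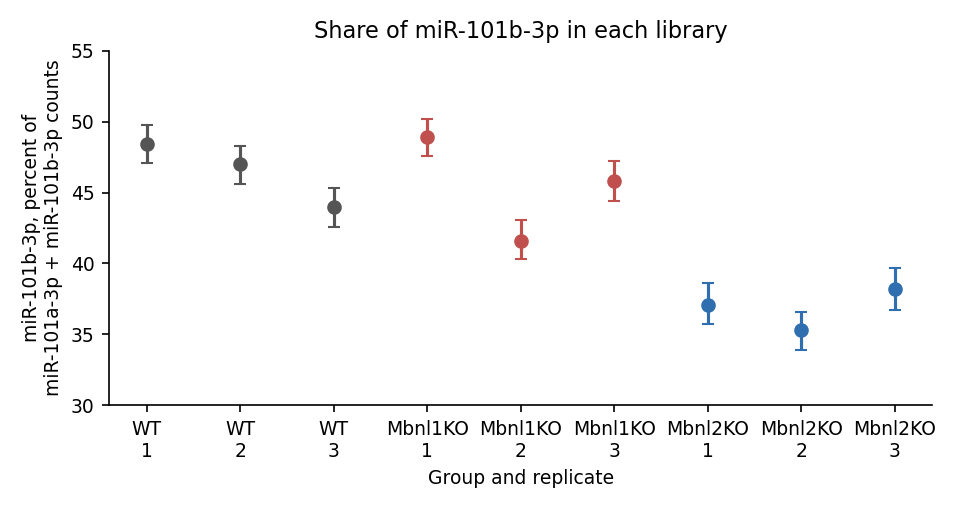
Share of miR-101b-3p in the summed raw counts of miR-101a-3p and miR-101b-3p, in percent, for each library, with exact 95% binomial intervals (axis from 30% to 55%). The Mbnl2KO libraries lie at 35.3% to 38.2%, below all WT and Mbnl1KO libraries at 41.6% to 48.9%.

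In the direct comparison of the knockouts, 26.9% of 309 tested miRNAs passed an adjusted p of 0.05, 11.7% with a lower and 15.2% with a higher level in Mbnl1KO, and neither 3p arm did. The groups did not overlap for 46.0%, with 20.1% lower in Mbnl1KO, and those of both 3p arms overlapped. The members were chosen on values of these same libraries, so their differences here are a description too. miR-101b-3p had a log2 fold change of 0.17 in Mbnl1KO relative to Mbnl2KO (standard error 0.134). The 95% interval of the difference was −0.12 to 0.45, which holds differences of either sign. Under library totals alone it was 0.47. miR-101a-3p had −0.33 (standard error 0.142), with an interval of −0.63 to −0.03, and −0.05 under library totals alone. Without Mbnl1KO replicate 2, in which miR-101a-3p was at the WT level, its log2 fold change moved to −0.52.

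The family sum was lower than in WT in both knockouts. Summed over the 4 members, the normalized counts were 5676, 5295 and 6571 in WT, 4424, 5031 and 4032 in Mbnl1KO, and 4525, 4622 and 5088 in Mbnl2KO. Every knockout library lay below every WT library under TMM. Per total counts, the sum in Mbnl1KO replicates 1 and 2 (979.3 and 915.8 CPM) was above that in WT replicates 1 and 2 (913.3 and 896.9 CPM), so these groups then overlapped. The means of the normalized counts were 5847 ± 655, 4496 ± 503 and 4745 ± 301, respectively (SD, n = 3 each). The log2 ratio of the means to WT was −0.38 in Mbnl1KO and −0.30 in Mbnl2KO, and −0.08 between Mbnl1KO and Mbnl2KO, whose libraries overlapped. With library totals alone these values were −0.148, −0.315 and 0.167, so that the order of the knockouts turned. In Mbnl1KO both 3p arms contributed to the lower sum, and in Mbnl2KO the difference lay mostly in miR-101b-3p.

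**Figure D4:**
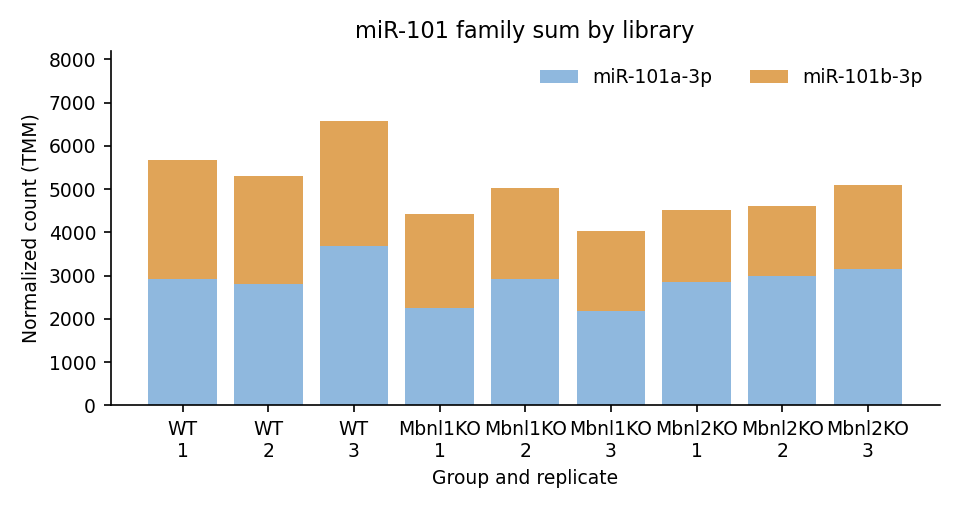
Family sum in normalized counts (TMM, bars from 0) for each library, divided into miR-101a-3p and miR-101b-3p. The 5p arms, with at most 6 raw counts in a library, are too few to be seen. The 3 WT bars, from 5295 upward, are higher than the 6 knockout bars under this scaling, of which the highest is 5088.

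The 5p arms were rare throughout and stayed below the filter. miR-101a-5p had 3, 3 and 1 raw counts in WT, 6, 6 and 5 in Mbnl1KO and 2, 2 and 1 in Mbnl2KO. The Mbnl1KO libraries lay above all others, on very few counts. Summed over a group, 7 counts in WT, 17 in Mbnl1KO and 5 in Mbnl2KO made up 0.0797%, 0.205% and 0.0590% of the counts of both arms of miR-101a, with exact 95% binomial intervals of 0.032% to 0.164%, 0.119% to 0.327% and 0.0191% to 0.138%. After scaling, the ratio of Mbnl1KO to WT was 2.01, with an exact 95% interval of 0.793 to 5.74 for counting error, so a difference was not detectable at this depth. The ratio of Mbnl1KO to Mbnl2KO was 2.82, with an interval of 1.00 to 9.79. miR-101b-5p had between 0 and 3 counts in a library, with sums of 2, 2 and 4, and no fold change is given.

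Levels of miR-101b-3p across the 9 libraries were most like those of miR-5113 (Pearson r = 0.950 of log2 CPM), miR-190a-5p (0.872), miR-29b-1-5p (0.854), miR-7a-5p (0.801) and miR-365-2-5p (0.780), among 310 miRNAs with a mean normalized count of more than 10. Those most like miR-101a-3p were miR-362-5p (0.922), miR-192-5p (0.912), miR-1247-5p (0.837), miR-532-5p (0.811) and miR-146b-5p (0.808). No miRNA was in both lists. Between the paralogs themselves r was 0.363. The points share libraries and their scaling, and the values are a description.

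Other miRNAs reported to repress Ezh2 were compared with the same fits. Of 6 such miRNAs, miR-26a-5p, miR-26b-5p, miR-138-5p and miR-214-3p were tested, and miR-124-3p and miR-217-5p had at most 3 counts in a library. Relative to WT, 0 of 4 passed an adjusted p of 0.05 in either direction in Mbnl1KO and 0 of 4 in Mbnl2KO (edgeR), against 33.1% and 5.80% of all tested miRNAs, with median log2 fold changes of −0.12 and −0.01. At an unadjusted p under 0.05 the count was also 0 of 4 in each, and DESeq2 called 0 as well. Between the knockouts 1 of 4 passed, against 26.9% of all tested miRNAs, and this was miR-26a-5p, which was lower in Mbnl1KO than in Mbnl2KO (log2 fold change −0.40, standard error 0.112, adjusted p = 0.0143, edgeR). miR-26a-5p is far more abundant than the miR-101 family, with 122665 to 190220 raw counts in a library.

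Markers of other cell types were examined in the same libraries, since a bulk sample does not separate fewer cells of a type from less RNA per cell. The summed level of the vessel wall and endothelium list lay between 27940 and 30370 normalized counts in WT and between 36910 and 41230 in Mbnl2KO. Of its members, miR-126a-3p and miR-126a-5p were listed at 0, and miR-143-3p was higher in Mbnl2KO (log2 fold change 0.48, adjusted p = 0.0169, edgeR). The remaining member, miR-145a-5p, was near its WT level there (0.04, adjusted p = 0.905, edgeR), so the higher sum was that of miR-143-3p and not of the list as a whole. In Mbnl1KO the summed level lay between 27000 and 41880. The immune cell list lay between 1615 and 1765 in WT, 1809 and 2082 in Mbnl1KO and 1725 and 2087 in Mbnl2KO, with miR-142a-3p listed at 0. Within it, miR-155-5p was higher and miR-223-3p and miR-142a-5p were lower in Mbnl1KO than in WT, with log2 fold changes of 0.86, −0.87 and −0.84 and adjusted p of 1.02e-05, 3.74e-05 and 0.0295 (edgeR). The red blood cell list had 517 to 737 in WT, 479 to 643 in Mbnl2KO and 552 to 1059 in Mbnl1KO, so that all groups overlapped. In Mbnl1KO its tested members, miR-451a and miR-144-5p, were highest in replicate 2, and neither passed against WT (log2 fold changes 0.08 and 0.23). The fibroblast list overlapped between WT (7255 to 7801) and Mbnl2KO (6771 to 8791), and lay at 6159 to 6985 in Mbnl1KO, where miR-199a-3p was lower than in WT (−0.43, adjusted p = 0.0139, edgeR). The other fibroblast miRNAs, miR-199a-5p (−0.05) and miR-214-3p (−0.10), did not pass in Mbnl1KO, where 14.2% of all tested miRNAs were lower. Of the 7 muscle miRNAs, 5 were tested, of which 2 were higher in Mbnl1KO and 1 in Mbnl2KO, and none was lower at an adjusted p of 0.05, against 18.9% and 3.41% of all tested miRNAs that were higher. miR-206-3p, which marks regenerating muscle, was higher in both, by 1.93 and 0.89 (adjusted p = 4.37e-21 and 0.00076, edgeR), and miR-133b-3p was higher in Mbnl1KO, by 0.71 (adjusted p = 0.0172, edgeR). Those that did not pass had log2 fold changes of −0.40 (miR-1a-3p, adjusted p = 0.0502, edgeR), 0.03 (miR-133a-3p) and 0.87 (miR-499-5p, standard error 1.2) in Mbnl1KO. The miR-499-5p value rests on Mbnl1KO replicate 2, with 100 normalized counts against 10.7 in replicate 1 and 9.5 in replicate 3. In Mbnl2KO miR-1a-3p had 0.02, miR-133a-3p −0.16, miR-133b-3p −0.15 and miR-499-5p −0.58. The neuron markers had at most 3 counts in a library. Their part in the levels of the miR-101 family was not tested.

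The size of the changes from WT varied with the processing, more in Mbnl1KO than in Mbnl2KO under library totals. For miR-101b-3p in Mbnl2KO, the log2 fold change lay between −0.73 and −0.56 over all alternatives, including those without 1 library. In Mbnl1KO without 1 library, it lay between −0.56 and −0.41 for miR-101b-3p, lowest in size without Mbnl1KO replicate 3. For miR-101a-3p it lay between −0.55 and −0.32 there, lowest in size without WT replicate 3. Scaled by library totals alone, the log2 fold changes in Mbnl1KO were −0.17 for miR-101b-3p and −0.13 for miR-101a-3p, and the Mbnl1KO and WT libraries of miR-101b-3p then overlapped. The median of all tested miRNAs moved to 0.30 under this scaling, and relative to that median the values were −0.47 and −0.43, against −0.48 and −0.41 with TMM. A change of scaling moves all miRNAs of a contrast nearly alike, so these values had to stay close and are no support.

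**Figure D5:**
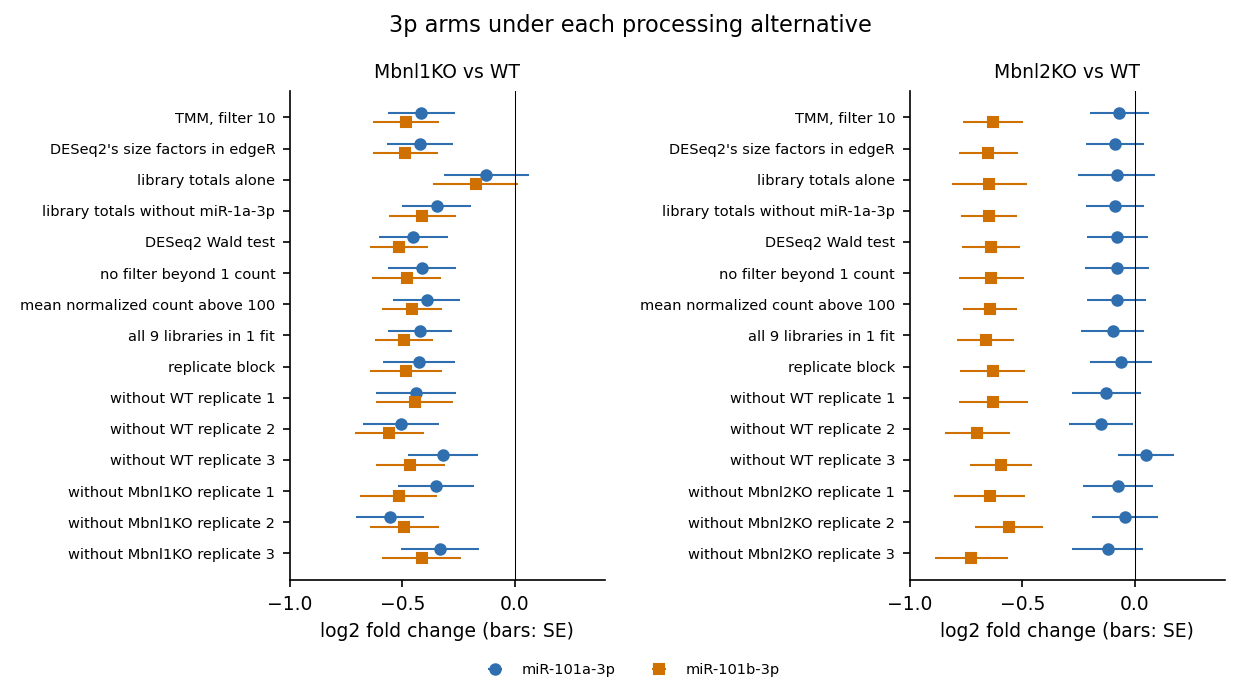
Log2 fold changes of miR-101a-3p (circles) and miR-101b-3p (squares) with standard errors under each processing alternative, for Mbnl1KO against WT (left) and Mbnl2KO against WT (right). The first line is the setting used for the values above. In Mbnl2KO every miR-101b-3p value lies between −0.73 and −0.56, and in Mbnl1KO library totals alone bring both paralogs closest to 0.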

How the data were processed

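Small RNA libraries were made from total RNA of quadriceps muscle with a NEXTflex kit. The authors deposited raw counts of reads per mature miRNA, without normalization. By the paper's methods, adapters were clipped, identical reads collapsed, and reads aligned in sense without mismatches to miRBase precursors. Whether these steps made the deposited table is not stated in it. The submitters' processing notes name DESeq2, with no version.

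For each contrast, the 6 libraries concerned were scaled by TMM and tested with robust quasi-likelihood fits in edgeR, with Benjamini-Hochberg adjustment over the miRNAs whose mean normalized count exceeded 10. Standard errors were taken from the fold change and the F statistic. DESeq2 was an alternative, as were other scalings, filters, a replicate block and leaving out each library. R 4.3.3, edgeR 4.0.16, DESeq2 1.42.0 and Python 3.11.15 were used. The scripts were tested on simulated data. Members, lists and the rule for named miRNAs (the members, miRNAs sharing their seed, the 5 most similar to each 3p arm, and the lists) were chosen with earlier results of these data known. Replicate libraries differed by more than counting error, and p-values measure only the spread between these samples.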

Additional observations from a re-analysis of the deposited data

Results flagged for a closer look

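miR-101a-5p had opposite signs in the knockouts. All 3 Mbnl1KO libraries lay above the WT mean of 2.39 normalized counts and all 3 Mbnl2KO libraries lay below it, with means of 5.06 and 1.72, a difference of 3.33. It did not pass the filter. Fitted without a filter, the knockouts differed by a log2 fold change of 1.42 with an adjusted p of 0.483 (edgeR), and the values rest on 1 to 6 raw counts per library.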

How the results depend on the processing

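The changes of miR-101b-3p in Mbnl2KO and of its ratio to miR-101a-3p kept their direction under every alternative run. In Mbnl1KO against WT, library totals alone moved miR-101b-3p to −0.17, miR-101a-3p to −0.13 and the family sum to −0.15, and miR-101a-3p no longer passed with the totals without miR-1a-3p (−0.35) or with no filter beyond 1 count (−0.41). Between the knockouts, library totals alone turned the family sum to 0.17, while the median of all tested miRNAs moved to 0.36. The cause was not tested. At an adjusted p of 0.05 in Mbnl1KO, the call of miR-101b-3p was lost without WT replicate 1 or Mbnl1KO replicate 3, and that of miR-101a-3p without WT replicate 1 or 3 or Mbnl1KO replicate 1 or 3. The members were chosen on this contrast, so calls kept there are no support. With 1 library left out, the log2 fold change in Mbnl1KO against WT lay between −0.56 and −0.41 for miR-101b-3p and between −0.55 and −0.32 for miR-101a-3p. In Mbnl2KO against WT, miR-101a-3p lay between −0.15 and 0.0497, turning positive without WT replicate 3, and between the knockouts it lay between −0.52 and −0.24 (−0.05 with library totals alone), passing an adjusted p of 0.05 without Mbnl1KO replicate 2 and in no other alternative, which is no support either. With DESeq2's size factors the miR-101a-3p libraries of Mbnl1KO overlapped neither those of WT nor those of Mbnl2KO. The ratio in Mbnl1KO against WT lay between −0.16 and 0.05.

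The numbers of differentially expressed miRNAs, which give the background, were 105 in Mbnl1KO (68 with a mean above 100, as fewer were tested), 17 in Mbnl2KO (7 with library totals alone, 9 with a mean above 100, 6 at an adjusted p of 0.01, and 6 to 25 with 1 library left out, where leaving out WT replicate 2 gave 6, Mbnl2KO replicate 1 gave 8 and WT replicate 1 gave 10) and 83 between the knockouts (45 at 0.01). Of these, 57.1%, 58.8% and 56.6% were higher in the knockout (in Mbnl1KO for the last), and 90.1%, 71.4% and 93.5% with library totals alone. With the replicate number as a block, 92, 21 and 80 passed, and no call of a 3p arm changed. Same-numbered libraries had deviations correlated between −0.16 and 0.12, so the numbers do not pair the samples. The 5p arms could be fitted only without a filter. Depth limits the 5p arms, and 3 libraries per group limit the rest.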
